A study of Mus musculus with 6 samples.

Results

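The 10 genes described here encode secreted or membrane-bound proteinases that cut extracellular matrix, their inhibitors, and matrix proteins: Mmp8, Mmp12, Mmp13, Mmp14 and Mmp19, then Timp1 and Timp2, then Fn1, Vcan and Thbs1. They were chosen by symbol, and all 10 were found among the 30406 genes listed in all 3 deposited count matrices. The matrices hold RNA and antibody tags of single CD11b+ brain cells (C57BL/6 mice, 12 weeks old) in a study whose title names glioma progression. Each of 3 pools was made from 6 samples marked with hashtag antibodies: a female and a male control, a female and a male with tumor at day 14 (D14), and a female and a male with tumor at day 21 (D21). All brains were perfused with cold saline and dissociated with enzymes, as tumor-bearing hemispheres for the tumor samples and as whole brains for the controls. CD11b, an integrin subunit, is found on myeloid cells. Fibroblasts and vessel cells also make matrix and were not the cells selected.

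The labels do not say which hashtag marked which of the 6 samples. Hashtags therefore carry no sex, tumor status or day here, no test between hashtags was run, and a sample is called by its pool and hashtag. A number that pools share is not taken to mark the same sample group. The animals behind the samples are not given either, so each p-value measures how within-sample differences vary among these hashed samples, and that variation may be technical in part.

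Matrix metalloproteinases are zinc enzymes made as inactive proforms. MMP8 and MMP13 cut fibrillar collagen, MMP12 cuts elastin and is a macrophage product, MMP19 is a secreted member of the family, and MMP14 sits in the cell membrane, where it cuts collagen and activates proMMP2. TIMP1 and TIMP2 block the active enzymes, and TIMP2 also helps MMP14 to bind proMMP2. Fibronectin (Fn1) is an adhesive glycoprotein, versican (Vcan) is a large chondroitin sulfate proteoglycan that binds hyaluronan, and thrombospondin-1 (Thbs1) is a matricellular protein that binds CD47 and CD36. In brain tumors, proteinases of this family are known from both the tumor cells and the myeloid cells around them.

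Mmp13, Mmp12 and Mmp8 lie in this order on 1 strand of chromosome 9, within 296 kb (chr9:7272514-7568486). Mmp14 is on chromosome 14, Mmp19 on 10, Timp1 on X, Timp2 on 11, Fn1 on 1, Vcan on 13 and Thbs1 on 2. RefSeq promoters of 300 bases, 250 before and 50 after a start site (build GRCm38.p6), were at hand for 7 of the 10 genes, with 8 promoters in all. The 3 neighbours on chromosome 9 are printed because Mmp12 and Mmp13 were high together in 3 sub-clusters of the remaining infiltrating cells. These levels are summed over pools that differed, as described below. Other classes did not share this pattern. Mmp12 had its highest class medians in dendritic-like and Gpnmb macrophage-like cells, where the Mmp13 medians were low. Among the main classes, Mmp8 had its highest median in Gpnmb macrophage-like cells. A link between the promoter letters and these levels was not tested. Each is on the plus strand, and the capitals mark matches to TGANTCA, the 7-base AP-1 motif that reads the same on both strands.
Mmp13, chr9:7272264-7272563: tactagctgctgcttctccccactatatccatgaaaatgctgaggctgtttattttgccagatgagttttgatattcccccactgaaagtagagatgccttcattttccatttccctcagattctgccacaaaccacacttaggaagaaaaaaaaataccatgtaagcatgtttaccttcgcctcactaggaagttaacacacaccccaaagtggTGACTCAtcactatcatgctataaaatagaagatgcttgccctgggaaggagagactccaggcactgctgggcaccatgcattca
Mmp12, chr9:7347124-7347423: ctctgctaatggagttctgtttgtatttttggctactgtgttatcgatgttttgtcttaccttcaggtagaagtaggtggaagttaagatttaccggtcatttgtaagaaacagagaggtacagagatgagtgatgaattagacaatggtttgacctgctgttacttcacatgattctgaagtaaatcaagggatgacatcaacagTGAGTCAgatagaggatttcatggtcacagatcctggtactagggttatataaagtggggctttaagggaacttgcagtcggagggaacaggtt
Mmp8, chr9:7558179-7558478: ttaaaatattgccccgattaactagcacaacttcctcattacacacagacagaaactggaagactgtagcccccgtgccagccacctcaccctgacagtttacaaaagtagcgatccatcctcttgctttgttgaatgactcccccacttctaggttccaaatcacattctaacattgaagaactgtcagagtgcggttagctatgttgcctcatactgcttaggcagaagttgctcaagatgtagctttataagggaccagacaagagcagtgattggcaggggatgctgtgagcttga
The motif begins 35 bases before the Mmp13 start site, as TGACTCA, and 44 bases before 1 of the 2 Mmp12 start sites, as TGAGTCA. It was not found in these 300 bases of Mmp8 or in the other 5 promoters of these genes, the upstream Mmp12 start included. Over all 32851 RefSeq promoters of this length, 2565 (7.81%) hold a match. The matches here are given as a description of the letters only.

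The mRNA libraries held 71510276 to 107880924 molecules counted by unique molecular identifiers (UMIs), in 11010 to 13925 barcodes a pool. Pool 3 stood apart, since 26.2% of its filtered barcodes were positive for exactly 1 hashtag, against 81.8% in pool 1 and 83.2% in pool 2. The 23235 cells used came 11255 from pool 1, 8895 from pool 2 and 3085 from pool 3, and 32 to 53 barcode sequences were shared by a pair of pools. Without pool 3, 30 changes of the 10 genes in the protein gates described below kept their direction and call and 1 lost its call, and all 72 class differences that had a value moved by less than 1 SD. That SD is the spread of the paired difference over samples. It reached 2.56 on the log2 scale for Mmp12, so a large move can stay within it. Classes were built from RNA clusters and fixed markers, with the 10 genes kept out of the clustering genes. Microglia-like cells numbered 10390 and had a median of 1436 counts-per-million (CPM) of Tmem119, a marker of brain-resident microglia, whose medians were at most 51.7 CPM in the infiltrating classes. Monocyte-like cells numbered 2072, with 3076 CPM of Ly6c2 and 5165 CPM of Plac8. The Nos2+Inhba macrophage-like class (1142 cells) is called by its marker list, and its leading genes held Saa3, Arg1 and Nos2, the inducible nitric oxide synthase gene, but not Inhba. Its median was 79.5 CPM of Nos2, against 22.8 CPM in monocyte-like cells and 17.3 CPM in the Gpnmb macrophage-like class (932 cells), whose Gpnmb level was 1038 CPM. The ranges of Nos2 overlap, since monocyte-like samples reached 126 CPM, and a monocyte-like sub-cluster of 627 cells held 67.0 CPM of Nos2 and 186 CPM of Inhba, against 87.0 and 197 CPM over all Nos2+Inhba macrophage-like cells. Inhba had medians of 239 CPM in the Nos2+Inhba and 252 CPM in the Gpnmb macrophage-like class. Dendritic-like cells numbered 739, and 2929 cells of infiltrating clusters met no name and are called the remaining infiltrating clusters. All infiltrating classes reached the minimum of 20 cells a sample only under hashtags 3 to 6. Of the gelatinases, Mmp9 had a median of 0 CPM in each of these classes, and Mmp2 a median of 15.4 CPM in microglia-like and 26.4 CPM in dividing cells.

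The proteinase genes differed in which classes held most of them, and the membrane-bound Mmp14 was high in the 4 largest monocyte and macrophage classes. Levels are CPM of a hashed sample's class, given as lowest, median and highest over samples. Mmp14 was at 159, 212 and 292 CPM in the remaining infiltrating clusters (n = 11), at 129, 195 and 249 CPM in Gpnmb macrophage-like cells (n = 10) and at 164, 188 and 231 CPM in Nos2+Inhba macrophage-like cells (n = 8). In monocyte-like cells it was at 76.3, 168 and 249 CPM (n = 11), in dendritic-like cells at 21.2, 43.0 and 106 CPM (n = 10) and in microglia-like cells at 8.30, 17.5 and 25.7 CPM (n = 17). These 4 monocyte and macrophage classes overlapped one another in Mmp14, and each lay above every microglia-like sample. In patrolling monocyte-like cells 3 of 4 samples were at 0 CPM and the other was at 7.47 CPM, and 5 of 108 border macrophage-like cells had a UMI of Mmp14. Within the same sample, Mmp14 was 3.01 ± 0.69 higher in monocyte-like than in microglia-like cells on the log2(CPM + 1) scale (SD, n = 10), and higher in 10 of 10 samples. It was 1.76 ± 0.77 lower in dendritic-like than in monocyte-like cells (lower in 10 of 10 samples). Monocyte-like cells were not uniform: the sub-cluster with the lowest Mmp14 level held 439 cells at 25.6 CPM, and the other 3 sub-clusters were at 112 to 241 CPM.

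**Figure D1:**
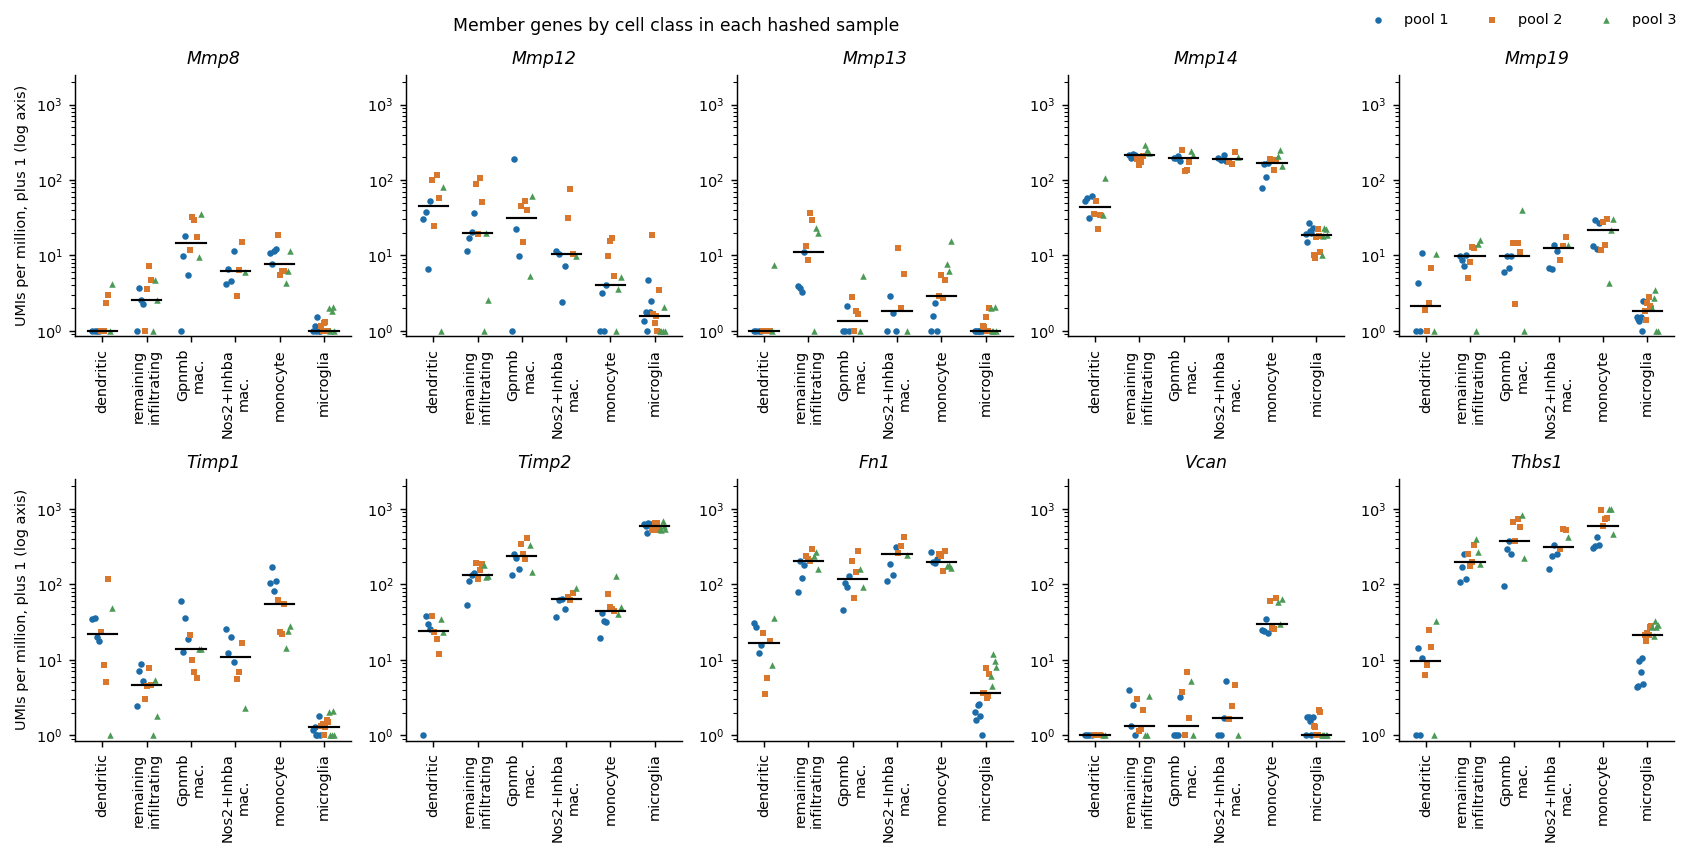
Level of each of the 10 genes in CPM plus 1 (log axis) for each hashed sample and cell class, with points coloured by pool and a black line at the class median. Of the classes plotted, microglia-like cells have the highest Timp2 (median 596 CPM), Vcan stands out in monocyte-like cells (median 28.5 CPM), and Mmp14 sits high in the 4 monocyte and macrophage classes plotted.

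The collagenase and elastase genes were sparse. Mmp12 was at 0, 43.8 and 114 CPM in dendritic-like cells, at 0, 30.3 and 188 CPM in Gpnmb macrophage-like cells, at 0, 19.2 and 105 CPM in the remaining infiltrating clusters, at 1.41, 9.51 and 75.2 CPM in Nos2+Inhba macrophage-like cells and at 0, 3.00 and 15.9 CPM in monocyte-like cells. Each of these ranges overlaps the next, so the order of the medians is not firm. In microglia-like cells the median was 0.60 CPM, and 1 sample, pool 2 hashtag 1, was at 17.8 CPM while the other 16 were at 3.75 CPM or lower. Few cells set these Mmp12 levels. A UMI was found in 26 of 10390 microglia-like, 30 of 2072 monocyte-like and 45 of 1142 Nos2+Inhba macrophage-like cells. The counts were 59 of 932 Gpnmb macrophage-like, 61 of 739 dendritic-like and 280 of 2929 remaining infiltrating cells. The highest Gpnmb macrophage-like value came from pool 1 hashtag 4 alone (188 CPM), and the next was 60.1 CPM. Mmp13 was at 0, 10.0 and 35.1 CPM in the remaining infiltrating clusters and at a median of 1.90 CPM or lower in the other classes. It was higher in those clusters than in monocyte-like cells in 10 of 11 samples, by 1.43 ± 1.84 (SD, log2(CPM + 1)), with overlapping levels. The 5 sub-clusters of the remaining infiltrating cells differed in both genes. Sub-clusters of 275, 659 and 814 cells held 52.8 to 82.2 CPM of Mmp12 with 23.8 to 29.1 CPM of Mmp13, while the other 2 held 1.29 and 12.5 CPM of Mmp12 with 4.50 and 5.40 CPM of Mmp13. These levels are summed over the pools, which differed. In the remaining infiltrating clusters the Mmp12 medians were 17.7, 69.2 and 1.56 CPM in pools 1, 2 and 3. The Mmp13 medians there were 2.83, 20.5 and 18.7 CPM, so both genes had their highest pool median in pool 2.

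Mmp8 and Mmp19 had other orders. Mmp8 was at 0, 13.6 and 34.3 CPM in Gpnmb macrophage-like cells, at 3.36, 6.68 and 17.5 CPM in monocyte-like cells and at 1.93, 5.26 and 14.3 CPM in Nos2+Inhba macrophage-like cells, which overlap. It had a median of 0 CPM in microglia-like and dendritic-like cells. Patrolling monocyte-like cells, with Ace and Treml4, had 14.9 to 56.1 CPM of Mmp8 in 4 samples. The monocyte-like sub-cluster of 439 cells with low Mmp14 held 26.8 CPM of Mmp8. The other monocyte-like sub-clusters held 3.53 to 5.29 CPM, and all Gpnmb macrophage-like cells summed held 17.0 CPM. Mmp19 was at 3.36, 20.7 and 29.5 CPM in monocyte-like cells, at medians of 11.4, 8.90 and 8.85 CPM in the Nos2+Inhba macrophage-like, Gpnmb macrophage-like and remaining infiltrating cells, and at medians of 1.12 and 0.82 CPM in dendritic-like and microglia-like cells. In each of 11 samples it was lower in the remaining infiltrating clusters than in monocyte-like cells, by 1.13 ± 0.62.

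The inhibitors went opposite ways: Timp2 was high in microglia-like and dividing cells, while among the 6 main classes Timp1 had its highest median in monocyte-like cells. Timp2 was at 472, 596 and 692 CPM in microglia-like cells, at 134, 235 and 408 CPM in Gpnmb macrophage-like cells, at 51.6, 131 and 192 CPM in the remaining infiltrating clusters, at 36.0, 62.3 and 88.2 CPM in Nos2+Inhba macrophage-like cells, at 18.2, 43.5 and 128 CPM in monocyte-like cells and at 0, 23.3 and 36.7 CPM in dendritic-like cells. No infiltrating sample reached the lowest microglia-like one. Dividing cells were at 613 to 1340 CPM in 8 samples. Timp2 was 3.70 ± 0.68 lower in monocyte-like than in microglia-like cells of the same sample (lower in 10 of 10), and 1.27 ± 0.50 lower in Gpnmb macrophage-like than in microglia-like cells (lower in 9 of 9). Among the infiltrating classes it was highest in Gpnmb macrophage-like cells, by 2.34 ± 0.56 over monocyte-like cells (10 of 10 samples) and by 1.79 ± 0.48 over Nos2+Inhba macrophage-like cells (8 of 8 samples), both without overlap.

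Timp1 was at 13.5, 54.5 and 169 CPM in monocyte-like cells, at 0, 20.8 and 118 CPM in dendritic-like cells and at 4.77, 12.9 and 59.5 CPM in Gpnmb macrophage-like cells. It was at 1.28, 9.89 and 24.6 CPM in Nos2+Inhba macrophage-like cells, at 0, 3.66 and 7.68 CPM in the remaining infiltrating clusters and at 0, 0.30 and 1.08 CPM in microglia-like cells. Patrolling monocyte-like cells held no UMI of Timp1 in 192 cells, which allows a share of cells with a UMI of up to 1.56%. Timp1 was lower than in monocyte-like cells of the same sample by 3.58 ± 1.17 in the remaining infiltrating clusters (11 of 11 samples), by 2.57 ± 0.91 in Nos2+Inhba macrophage-like cells (8 of 8) and by 1.70 ± 1.14 in Gpnmb macrophage-like cells (10 of 10). The monocyte-like samples differed by pool, at 80.7 to 169 CPM in pool 1, 21.1 to 60.1 CPM in pool 2 and 13.5 to 27.3 CPM in pool 3.

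Each of the 3 matrix genes had its own order among the classes. Fn1 was at 111, 252 and 420 CPM in Nos2+Inhba macrophage-like cells, at 78.2, 206 and 289 CPM in the remaining infiltrating clusters, at 148, 194 and 279 CPM in monocyte-like cells and at 44.6, 115 and 271 CPM in Gpnmb macrophage-like cells. These 4 classes overlapped. Dendritic-like cells were at 2.49, 15.6 and 35.2 CPM, microglia-like cells at 0, 2.61 and 10.9 CPM and patrolling monocyte-like cells at 308 to 449 CPM in 4 samples. In each of 8 samples Fn1 was lower in Gpnmb macrophage-like than in Nos2+Inhba macrophage-like cells, by 1.13 ± 0.47, although the 2 ranges overlap across samples.

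Vcan was at 21.8, 28.5 and 64.9 CPM in monocyte-like cells, while the medians of the other 5 classes were 0.67 CPM or lower and their highest sample was at 5.97 CPM. No UMI of Vcan was counted in any dendritic-like sample. Within the same sample it was lower by 4.11 ± 1.11 in Nos2+Inhba macrophage-like cells (8 of 8), by 4.25 ± 1.23 in Gpnmb macrophage-like cells (10 of 10) and by 4.39 ± 0.79 in the remaining infiltrating clusters (11 of 11), against monocyte-like cells and each time without overlap. Patrolling monocyte-like cells held it too, at 14.7 to 97.2 CPM. Within the monocyte-like class, the sub-cluster of 439 cells with low Mmp14 was at 108 CPM of Vcan, 145 CPM of Timp1 and 445 CPM of Fn1, above the other 3 sub-clusters in all 3 genes.

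Thbs1 was at 299, 586 and 1002 CPM in monocyte-like cells, at 94.2, 372 and 835 CPM in Gpnmb macrophage-like cells, at 157, 310 and 546 CPM in Nos2+Inhba macrophage-like cells and at 106, 194 and 398 CPM in the remaining infiltrating clusters. Microglia-like cells were at 3.33, 20.4 and 32.0 CPM and dendritic-like cells at 0, 8.59 and 32.0 CPM. Thbs1 was 5.19 ± 0.43 higher in monocyte-like than in microglia-like cells (10 of 10 samples). It was lower than in monocyte-like cells by 1.45 ± 0.41 in the remaining infiltrating clusters (11 of 11) and by 0.51 ± 0.30 in Nos2+Inhba macrophage-like cells (8 of 8). Pool 1 was low in both: its microglia-like samples were at 3.33 to 9.70 CPM, against 16.6 to 26.8 CPM in pool 2 and 19.8 to 32.0 CPM in pool 3, and its monocyte-like samples at 299 to 419 CPM, against 586 to 972 and 457 to 1002 CPM. Pool 1 was also counted with another software version, and the pool and the version cannot be told apart.

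Because clusters were made from the RNA of the same cells, these class differences carry no test, and they are set against all genes instead. Here all genes means those with a mean of at least 10 UMIs over the paired sums. The 10 genes were read without that minimum. Mmp8, where named below, and Timp1 in Gpnmb macrophage-like against microglia-like cells were under it, so the shares do not cover them. Against microglia-like cells, 7 of the 10 genes were higher in monocyte-like cells in every paired sample with no overlap of levels (Mmp8, Mmp14, Mmp19, Timp1, Fn1, Vcan and Thbs1), where 11.7% of all genes tested were. Timp2 was the 1 gene lower in this way, where 26.4% were. Gpnmb macrophage-like against microglia-like cells gave Mmp14, Timp1, Fn1 and Thbs1 as higher (9.51% of all genes) and Timp2 as lower (21.5%). Against monocyte-like cells, Gpnmb macrophage-like cells had Timp2 higher (2.3% of all genes) and Vcan lower (2.96%). Nos2+Inhba macrophage-like cells had 0 of the 10 higher (4.01%) and Vcan lower (3.94%), the remaining infiltrating clusters had 0 higher (5.43%) and Timp1 and Vcan lower (3.1%), and dendritic-like cells had 0 higher (4.44%) and Mmp8, Fn1, Vcan and Thbs1 lower (4.84%). Gpnmb macrophage-like against Nos2+Inhba macrophage-like cells gave Timp2 as higher (1.24%).

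The share of cells with at least 1 UMI is read within a limit set by free RNA in droplets. Shares were taken after thinning every cell with at least 2000 UMIs to that number. Shallower cells were left out, among them 595 of 10390 microglia-like and 99 of 630 NK-like cells. The NK-like cells, lymphocytes not known for these genes, served as a background (median 2956 UMIs a cell before thinning). Timp2 was seen in 64.6% of microglia-like, 35.6% of Gpnmb macrophage-like and 21.0% of remaining infiltrating cells, against 11.5% of NK-like cells. Among 59 thinned T-like cells the Timp2 share was 20.3% (exact interval 11.0% to 32.8%). It was 26.8% among 41 thinned neutrophil-like cells (14.2% to 42.9%). The share in the remaining infiltrating cells was therefore above that of NK-like cells only, and is not set apart from background. The Gpnmb macrophage-like share was above the NK-like and T-like intervals but inside the neutrophil-like one. The Timp2 shares of 10.6% in Nos2+Inhba macrophage-like, 6.55% in monocyte-like and 3.64% in dendritic-like cells did not exceed the NK-like share. Without thinning the Timp2 shares were 84.3%, 69.2% and 58.3% in the first 3 classes and 33.01%, 20.6% and 11.9% in the other 3, against 17.1% of NK-like cells, with median depths of 4114 UMIs in microglia-like and 7081.5 to 11123 UMIs in the infiltrating classes. Thbs1 in microglia-like cells (2.33%, against 1.88% in NK-like cells) and Fn1 there (0.44%, against 0.56%) were near background as well. For Thbs1 the shares were 46.1% in Gpnmb macrophage-like, 43.8% in monocyte-like, 35.7% in Nos2+Inhba macrophage-like and 26.9% in remaining infiltrating cells (68.1%, 60.5%, 55.4% and 49.2% without thinning). The first pair stands in the other order than in CPM, so no order between these classes is read from it. Among the thinned neutrophil-like cells the Thbs1 share was 39.0% (24.2% to 55.5%). That interval holds the thinned Thbs1 shares of all these classes, so they are set apart from NK-like but not from neutrophil-like cells. Vcan was in 5.57% of monocyte-like cells after thinning and in 14.3% before it. Before thinning it was in 0 of 630 NK-like cells and 0 of 739 dendritic-like cells, where 3 counts would be shares of 0.476% and 0.406% of cells with a UMI. Mmp13 was in 1.83% of the remaining infiltrating cells, against 0.26% or fewer in the other 5 classes. Intervals and limits of this kind cover counting error only.

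**Figure D2:**
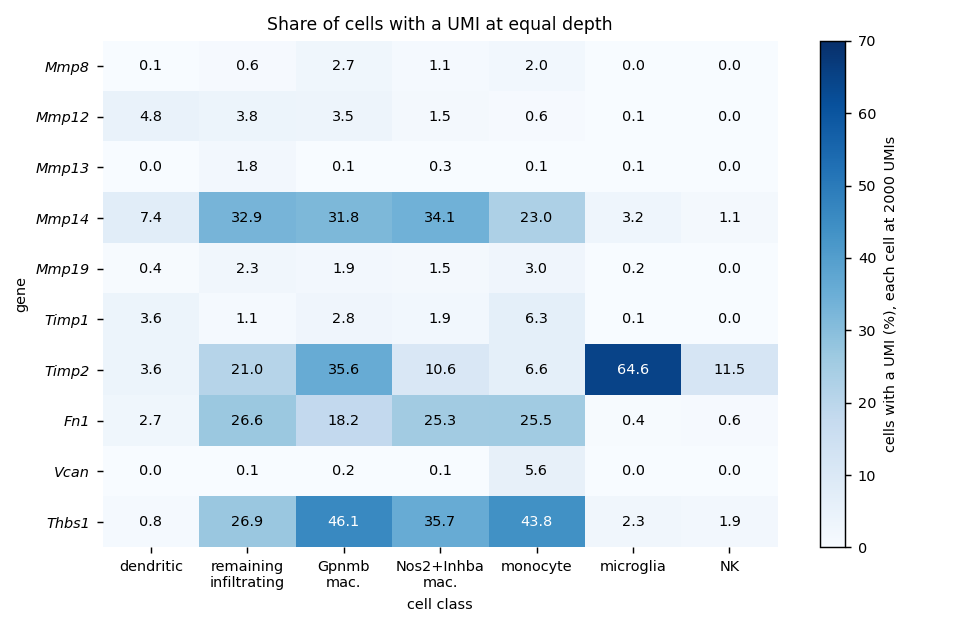
Percent of cells with at least 1 UMI of each gene (rows) in each class (columns), after cells were thinned to 2000 UMIs and shallower cells left out. Darker blue is a higher share. NK-like cells stand as the background column, with 11.5% for Timp2 and under 2% for every other gene.

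Surface protein gave a split of the cells that the RNA clusters did not set. In each hashed sample, a high gate took the 25% of cells with the most of a tag and a low gate the 25% with the least, and summed counts were tested with edgeR's quasi-likelihood test, with the sample as a block and Benjamini-Hochberg adjustment over all genes. The monocyte and macrophage cells (monocyte-like, both macrophage-like classes and the remaining infiltrating clusters) gave 11 samples. The 3 tags below divide the same cells, so their results are not independent and are given side by side only. Mmp13 passed the filter on low counts in none of the gates. That filter asks for enough counts in about as many sums as a single gate gives. A gene high in a single gate can therefore pass through that gate alone, and its direction is then largely set by passing. Vcan and Mmp12, with low medians in the other gate, come close to this. The counts of genes that rose or fell include such genes, and all genes were filtered in the same way.

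Ly-6C, a surface protein of inflammatory monocytes, marked cells rich in Timp1, Vcan and Thbs1. Of the 9 genes tested, 6 rose in the Ly-6C-high gate (26.4% of all genes did) and 3 fell (23.1%). Vcan was at 12.1, 30.2 and 50.8 CPM in the high gates and at 0, 0.54 and 8.21 CPM in the low gates, which do not overlap. Its log2 fold change was 4.28 ± 0.29 (SE, adjusted p = 3.7e-09). Timp1 was at 5.17, 33.3 and 209 CPM, against 0, 4.91 and 28.9 CPM, with a log2 fold change of 3.19 ± 0.26 (adjusted p = 1.6e-08). Thbs1 was at 258, 651 and 1170 CPM, against 89.1, 169 and 668 CPM (1.79 ± 0.15, adjusted p = 2.1e-08). All 3 genes were higher in 11 of 11 samples. Smaller rises were those of Mmp8 (1.68 ± 0.31, adjusted p = 0.00019) and Mmp19 (1.12 ± 0.19, adjusted p = 5.8e-05), in 11 of 11 samples each, and of Fn1 (0.66 ± 0.17, adjusted p = 0.0036), in 9 of 11. The Fn1 call was lost with gates on raw tag counts (0.11, adjusted p = 0.46) and in the macrophage-like classes alone (0.06, adjusted p = 0.89). Mmp12 fell, at 0, 1.16 and 12.1 CPM in the high gates and 0, 33.04 and 157 CPM in the low gates (log2 fold change -4.08 ± 0.38, adjusted p = 9e-08, lower in 10 of 11). Timp2 fell too (-0.95 ± 0.16, adjusted p = 7.3e-05, lower in 10 of 11). Mmp14 was lower in 11 of 11 samples but by little, at a median of 170 against 201 CPM (-0.28 ± 0.09, adjusted p = 0.015), and the call was lost without the block (adjusted p = 0.067), without pool 1 (0.15), without pool 3 (0.056), with gates of 40% of the cells (0.067) and with gates on raw tag counts (-0.06, adjusted p = 0.46).

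The gates differed in makeup. A median of 66.5% of Ly-6C-high cells against 6.70% of Ly-6C-low cells were monocyte-like, while 7.22% against 73.7% belonged to the remaining infiltrating clusters. The summed level of the 7 monocyte markers was 5596 to 13101 CPM in the high gates and 289 to 3827 CPM in the low gates, and the median cell held 7740 against 10918 UMIs. Dendritic and microglia markers were low in both (medians of 25.95 against 27.9 CPM and 377 against 538 CPM).

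MHC-II, which presents antigen, gave the reverse of most of these changes. Of the 9 genes tested, 3 rose in the MHC-II-high gate (16.2% of all genes did) and 6 fell (19.7%). Vcan fell by 4.003 ± 0.26 on the log2 scale, at 0, 0.64 and 11.3 CPM against 10.48, 25.8 and 67.7 CPM (adjusted p = 4.4e-09). Timp1 fell by 2.67 ± 0.21 (adjusted p = 5.4e-08), Thbs1 by 1.60 ± 0.14 (adjusted p = 2e-07), Mmp19 by 1.18 ± 0.20 (adjusted p = 0.00022), Fn1 by 1.15 ± 0.19 (adjusted p = 0.00011) and Mmp8 by 1.78 ± 0.36 (adjusted p = 0.00097). These 6 genes were lower in 10 or 11 of 11 samples. Mmp12 rose, at 0, 26.8 and 125 CPM in the high gates and 0, 4.30 and 32.8 CPM in the low gates (2.01 ± 0.40, adjusted p = 0.00093, higher in 9 of 11). Mmp14 (0.41 ± 0.13, adjusted p = 0.016) and Timp2 (0.55 ± 0.17, adjusted p = 0.016) were each higher in 9 of 11 samples, and both calls were lost without the block (adjusted p = 0.082 and 0.38) and without pool 1 (0.18 and 0.37). Without pool 1 the Mmp8 call was lost as well (adjusted p = 0.055), and 826 genes of the whole table were called, against 2671 with it. Monocyte-like cells were a median of 17.1% of the MHC-II-high gate and 60.8% of the low gate.

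PD-L1, the checkpoint ligand encoded by Cd274, gave 3 genes that rose (25.4% of all genes did) and 5 that fell (24.2%) of the 8 tested. Mmp12 was at 0, 48.2 and 150 CPM in PD-L1-high gates and at 0, 0 and 13.8 CPM in PD-L1-low gates (4.04 ± 0.31, adjusted p = 5.2e-09, higher in 10 of 11). Timp2 was at 56.5, 130 and 385 CPM, against 23.3, 50.6 and 119 CPM (1.303 ± 0.13, adjusted p = 1.4e-07, higher in 11 of 11). Mmp14 was at 156, 222 and 281 CPM, against 52.3, 142 and 212 CPM (0.57 ± 0.12, adjusted p = 0.00068, higher in 11 of 11). These 3 were the ones that rose, while Vcan (-4.71 ± 0.27, adjusted p = 7.1e-11), Timp1 (-2.97 ± 0.24, adjusted p = 4.6e-09) and Thbs1 (-1.47 ± 0.14, adjusted p = 3.6e-08) fell in 11 of 11 samples each. Mmp19 fell by 0.67 ± 0.20 (adjusted p = 0.0096), a call lost without pool 1 (adjusted p = 0.095). Mmp8 did not pass the filter on low counts, with medians of 5.79 CPM in the high and 12.1 CPM in the low gates. Fn1 was at the edge of the threshold (-0.38 ± 0.16, adjusted p = 0.047) and was not called without the block (adjusted p = 0.093), without pool 1 (0.47), with library size alone (0.12) or with DESeq2's test (0.068). Monocyte-like cells were a median of 4.26% of the PD-L1-high gate and 78.6% of the low gate.

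**Figure D3:**
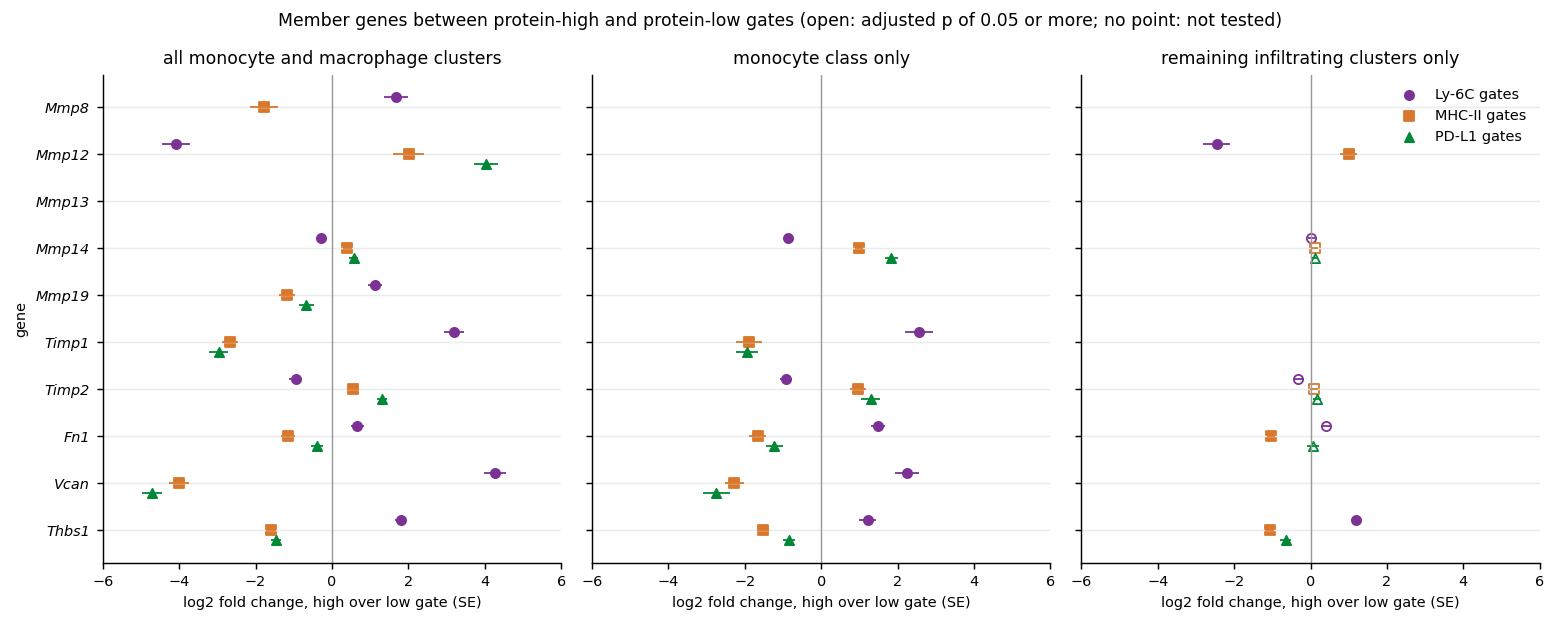
Log2 fold change of each gene between protein-high and protein-low gates (bars: SE), for all monocyte and macrophage cells (left), the monocyte-like class alone (middle) and the remaining infiltrating clusters alone (right). Filled points passed an adjusted p of 0.05, open points did not, and a missing point was not tested; Mmp14 lies near 0 in the right panel and at 1.84 for PD-L1 in the middle one.

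Since the gates sorted cells by class as well, they were set again within single classes, a choice made after the data were seen. Within the monocyte-like class 8 samples of pools 1 and 2 had 28 to 91 cells a gate, and all 6 genes that could be tested passed for each of the 3 tags, while Mmp8, Mmp12, Mmp13 and Mmp19 did not pass the filter on low counts. In Ly-6C gates 4 of the 6 rose (14.3% of all genes did) and 2 fell (12%). Fn1 was at 217, 383 and 512 CPM in Ly-6C-high monocyte-like cells and at 50.2, 148 and 264 CPM in Ly-6C-low ones (1.48 ± 0.18, adjusted p = 1.1e-05, higher in 8 of 8 samples). Vcan was at 18.8, 61.1 and 168 CPM, against 0, 10.8 and 45.8 CPM (2.24 ± 0.31, adjusted p = 3.7e-05, 8 of 8). Timp1 was at 67.5, 84.4 and 359 CPM, against 0, 12.7 and 62.7 CPM, with no overlap (2.56 ± 0.36, adjusted p = 3.9e-05, 8 of 8). Thbs1 rose by 1.21 ± 0.22 (adjusted p = 0.0005, 7 of 8). Mmp14 fell, at 32.2, 105 and 139 CPM against 105, 179 and 282 CPM (-0.88 ± 0.13, adjusted p = 8.5e-05, lower in 8 of 8), and Timp2 fell by 0.91 ± 0.16 (adjusted p = 0.00039, lower in 8 of 8). The Timp2 medians here, 28.1 CPM in the high and 63.8 CPM in the low gates, were below the 66.1 CPM of NK-like cells. NK-like cells were shallower, at a median of 2956 UMIs a cell, so their CPM does not set a background level for these gates. The part of free RNA in this change was not tested.

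In PD-L1 gates of the monocyte-like class, Mmp14 was at 158, 221 and 266 CPM in the high gates and at 27.5, 64.4 and 99.3 CPM in the low gates. The gates did not overlap, and the log2 fold change was 1.84 ± 0.17 (adjusted p = 1.9e-07), above the 0.57 found over all monocyte and macrophage cells, though the 2 values share cells and their difference was not tested. Mmp14 and Timp2 (1.29 ± 0.25, adjusted p = 0.00056) were the 2 that rose (17.5% of all genes did), with Timp2 medians of 59.8 CPM in the high and 24.7 CPM in the low gates, both under the NK-like median, and 4 fell (18.9%): Vcan (-2.75 ± 0.35, adjusted p = 9.6e-06), Timp1 (-1.94 ± 0.29, adjusted p = 4.6e-05), Fn1 (-1.23 ± 0.23, adjusted p = 0.00045) and Thbs1 (-0.84 ± 0.16, adjusted p = 0.00065). MHC-II gates gave the same 2 genes as higher (16% of all genes) and the same 4 as lower (17.6%), with Mmp14 at 0.99 ± 0.11 (adjusted p = 1.9e-06) and Fn1 at -1.67 ± 0.22 (adjusted p = 1.4e-05).

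**Figure D4:**
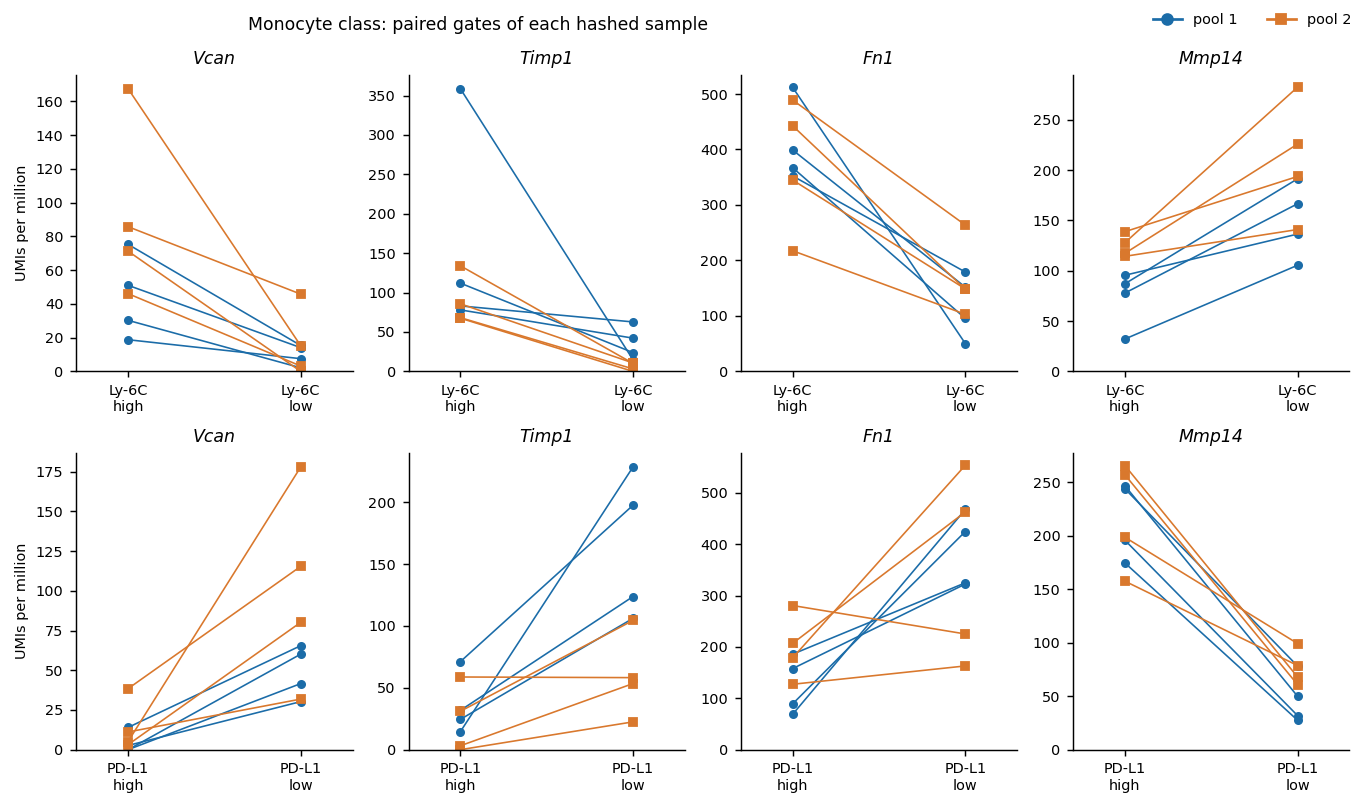
Vcan, Timp1, Fn1 and Mmp14 in CPM in the Ly-6C-high and Ly-6C-low gates (top row) and the PD-L1-high and PD-L1-low gates (bottom row) of the monocyte-like class, with a line for each of 8 hashed samples of pools 1 and 2. Mmp14 is at 158 to 266 CPM in every PD-L1-high gate and at 27.5 to 99.3 CPM in every PD-L1-low gate.

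Monocyte and macrophage markers moved with these gates even within the class. The summed monocyte markers had a median of 13533 CPM in Ly-6C-high and 4612 CPM in Ly-6C-low cells, and of 4997 CPM in PD-L1-high and 11912 CPM in PD-L1-low cells. The 6 Gpnmb macrophage markers summed to a median of 1494 CPM in PD-L1-high and 284 CPM in PD-L1-low cells, and the 9 dendritic markers to 21.8 CPM in Ly-6C-high and 147 CPM in Ly-6C-low cells. Their part in the changes of the 6 genes was not tested. Depth was alike, at a median of 7840 UMIs a cell in Ly-6C-high and 7991 in Ly-6C-low gates.

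Within the remaining infiltrating clusters (10 samples) Mmp8, Mmp13, Mmp19, Timp1 and Vcan, and for PD-L1 also Mmp12, did not pass the filter on low counts. In Ly-6C gates Thbs1 rose (1.19 ± 0.12, adjusted p = 2.9e-06, where 4.15% of all genes rose), at 154, 293 and 543 CPM in the high gates and 77.4, 122 and 246 CPM in the low gates, higher in 10 of 10 samples. Mmp12 fell by 2.46 ± 0.36 (adjusted p = 0.00013, where 2.74% fell), with 0, 1.32 and 30.4 CPM in the high gates and 3.36, 38.8 and 165 CPM in the low gates. Mmp14 (0.02 ± 0.09, adjusted p = 0.97), Timp2 (-0.32 ± 0.14, adjusted p = 0.20) and Fn1 (0.40 ± 0.14, adjusted p = 0.085) did not pass. In MHC-II gates Fn1 fell by 1.04 ± 0.10 (adjusted p = 9.1e-07) and Thbs1 by 1.06 ± 0.12 (adjusted p = 5.6e-06), both in 10 of 10 samples, and Mmp12 rose by 0.99 ± 0.23 (adjusted p = 0.008), where 2.45% of all genes fell and 2.45% rose. Mmp14 (0.11 ± 0.07, adjusted p = 0.55) and Timp2 (0.08 ± 0.11, adjusted p = 0.82) did not pass there. In PD-L1 gates Thbs1 fell by 0.65 ± 0.14 (adjusted p = 0.0027, where 4.3% fell), while Timp2 (0.18 ± 0.10, adjusted p = 0.37) and Fn1 (0.07 ± 0.15, adjusted p = 0.88) did not pass. Only Mmp14, Timp2, Fn1 and Thbs1 were tested in both subsets for every tag. Of these, Thbs1 alone was called in every tag of both subsets with the same sign as over all monocyte and macrophage cells. Mmp14, at 0.11 ± 0.07 in the PD-L1 gates (adjusted p = 0.40), was called in the monocyte-like class only, a contrast between subsets that was not tested.

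TMEM119, a membrane protein of microglia, divided all cells in 18 samples. Of the 4 genes tested, Timp2 rose in the TMEM119-high gate (35.8% of all genes did), and Mmp14, Fn1 and Thbs1 fell (31.9%). Timp2 was at 198, 567.8 and 729 CPM in the high gates and at 32.9, 164 and 856 CPM in the low gates (1.14 ± 0.30, adjusted p = 0.0021, higher in 16 of 18). Fn1 was at 0, 4.24 and 65.8 CPM, against 1.54, 109 and 273 CPM (-3.65 ± 0.41, adjusted p = 7e-07). Thbs1 was lower in 18 of 18 samples, at a median of 17.3 against 208 CPM (-3.44 ± 0.43, adjusted p = 2.1e-06), and Mmp14 in 17 of 18, at 20.2 against 139 CPM (-2.43 ± 0.29, adjusted p = 1.2e-06). Mmp8, Mmp12, Mmp13, Mmp19, Timp1 and Vcan did not pass the filter on low counts, with medians of 0 to 0.50 CPM in the high gates and 1.05 to 10.8 CPM in the low gates. Microglia-like cells made up a median of 68.5% of the high gates and 0.66% of the low gates, but up to 90.5% of a low gate, since some samples held few other cells. In the 11 samples with at least 20 monocyte-like cells, a subset chosen after the data were seen, Timp2 was 2.02 ± 0.24 higher (adjusted p = 3.6e-06, where 37.3% of all genes rose). Mmp12, Mmp14, Mmp19, Timp1, Fn1 and Thbs1 fell there, with log2 fold changes between -4.19 (Thbs1) and -2.98 (Mmp14), where 35% of all genes fell. Mmp8, Mmp13 and Vcan did not pass the filter there.

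Within microglia-like cells the direction of Timp2 was the other one. Timp2 was the 1 gene of the 10 that passed the filter on low counts, at 423, 524 and 643 CPM in TMEM119-high microglia-like cells and at 511, 606 and 849 CPM in TMEM119-low ones. The ranges overlap, and it was lower in 14 of 16 samples, with a log2 fold change of -0.43 ± 0.07 (adjusted p = 1.1e-05, where 17.8% of all genes fell). TMEM119-high cells were shallower, at a median of 4407 against 5844 UMIs a cell, and the 6 Gpnmb macrophage markers summed to a median of 342 against 520 CPM and the 7 monocyte markers to 52.5 against 126 CPM. Their part in the Timp2 difference was not tested.

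**Figure D5:**
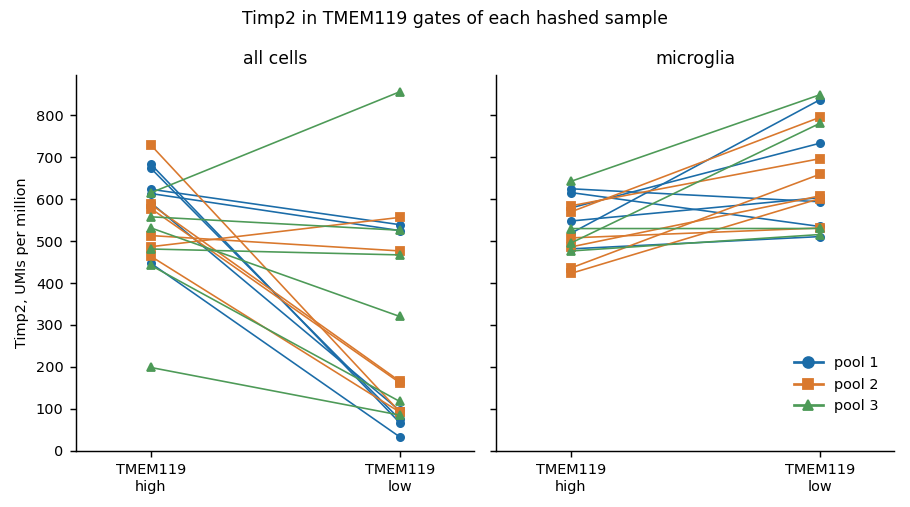
Timp2 in CPM in TMEM119-high and TMEM119-low gates of all cells (left, 18 samples) and of microglia-like cells (right, 16 samples), with a line for each hashed sample coloured by pool. The lines fall toward the low gate in 16 of 18 samples on the left and rise toward it in 14 of 16 on the right.

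Related genes were read from 4 lists, and every gene named from them passed the same test. In the Ly-6C-high gate, where 26.4% of all genes rose and 23.1% fell, 3 of 5 tested genes of plasminogen activation rose and 1 fell: Anxa2 (1.72 ± 0.12) and S100a10 (1.05 ± 0.09), which together form a plasminogen-binding complex at the cell surface, and Plaur (0.52 ± 0.07), the urokinase receptor, were higher in 11 of 11 samples. Of 10 other matrix genes 5 rose and 1 fell, among them Srgn (0.92 ± 0.09), the core protein of serglycin. Of 12 matrix receptors 5 rose and 3 fell, with Cd47 (1.08 ± 0.09), a receptor of thrombospondin-1, and Cd44 (0.97 ± 0.12), the hyaluronan receptor, higher and the laminin-binding integrin subunit Itga6 lower (-1.27 ± 0.21). Of 7 other metalloproteinase and inhibitor genes, 1 rose and 1 fell, both under the shares of all genes. The medians of the 4 lists were 0.52, 0.34, 0.06 and 0.00 on the log2 scale, in the order given, beside 0.00 over all genes tested.

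In the MHC-II-high gate, where 16.2% of all genes rose and 19.7% fell, plasminogen activation had 1 gene that rose and 3 that fell of 5, with Anxa2 at -1.61 ± 0.11 and S100a10 at -1.25 ± 0.09. Matrix genes had 0 that rose and 6 that fell of 10, among them F13a1 (-1.50 ± 0.17), a subunit of coagulation factor XIII that cross-links fibrin and fibronectin, and Emilin2 (-1.38 ± 0.12), an elastin-microfibril protein. Receptors had 2 that rose and 5 that fell of 12, with Cd44 at -0.93 ± 0.11 and Cd47 at -0.88 ± 0.10. The counts that rose in the plasminogen and receptor lists are near the share of all genes. Other metalloproteinase genes had 0 that rose and 3 that fell of 7, with Adam10, a membrane sheddase, at -0.35 ± 0.09. List medians were -0.42, -0.42, -0.22 and -0.29, beside 0.01 over all genes.

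In the PD-L1-high gate, where 25.4% of all genes rose and 24.2% fell, 2 of 7 other metalloproteinase genes rose and 0 fell, and both rose in 11 of 11 samples: Adam8, a sheddase of myeloid cells (0.88 ± 0.16), and Bsg, which encodes basigin, the inducer of metalloproteinases (0.28 ± 0.07). The 2 of 7 that rose are near the share of all genes, so the count is not read as a result about this list. Plasminogen activation had 1 that rose and 3 that fell of 5, matrix genes 2 and 3 of 10, which is near the shares of all genes, and receptors 4 and 5 of 12. Ecm1, extracellular matrix protein 1, rose (0.72 ± 0.13), as did Lrp1 (0.41 ± 0.10), a clearance receptor for proteinases and inhibitors, while Anxa2 (-1.57 ± 0.13), Srgn (-1.04 ± 0.09), Cd47 (-1.14 ± 0.10) and Itga4 (-0.95 ± 0.12), the fibronectin-binding CD49d, fell. List medians were 0.02, -0.36, -0.11 and -0.10, beside 0.03 over all genes.

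Over all cells, where 35.8% of all genes rose and 31.9% fell, TMEM119-high gates had 3 that rose and 4 that fell of 10 other metalloproteinase genes, 2 and 3 of 7 for plasminogen activation, 3 and 7 of 11 matrix genes and 6 and 7 of 15 receptors. Sparc, a matricellular protein that also served as a microglia marker, rose (4.20 ± 0.97), as did Serpine2 (3.63 ± 0.84), a protease inhibitor, and Itga6 (2.18 ± 0.40), while Emilin2 (-4.35 ± 0.51), Itga4 (-4.10 ± 0.38), Plaur (-2.86 ± 0.35) and Sdc4 (-2.34 ± 0.25) fell, each in 18 of 18 samples. List medians were -0.09, -0.12, -1.94 and -0.05, beside 0.05 over all genes. Several of these counts, such as those of the metalloproteinase genes, are near the shares of all genes. Within microglia-like cells, where 15.3% of all genes rose and 17.8% fell, the counts were 2 and 1 of 6, 1 and 2 of 4, 3 and 1 of 6, and 2 and 2 of 9 in the same order, with list medians of -0.07, -0.33, 0.08 and 0.15 beside 0.02 over all genes. There Adam17, the TNF-converting enzyme, rose by 0.33 ± 0.06, Itga6 by 0.23 ± 0.06 and Sparc by 0.19 ± 0.05, and Srgn fell by 0.88 ± 0.10, each in 16 of 16 samples.

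Across the 88 sums of a hashed sample and class, the genes most like each of the 10 by Pearson's r of log2(CPM + 1) are given as a description, since the sums share samples, depth and class markers. Timp2 was most like Ctsd (0.93), Trem2 (0.91) and Syngr1 (0.89). Fn1 was most like Cybb (0.90), Msr1 (0.89) and Cyp4f18 (0.88), Thbs1 like Lyz2 (0.86), Clec4d (0.86) and Mgst1 (0.85), and Mmp14 like Fth1 (0.86), Cxcl16 (0.85) and Ralgds (0.84). Mmp8 was most like F13a1 (0.84), Hp (0.81) and Mpp1 (0.80), Timp1 like Prm1 (0.83), Grb2 (0.81) and Ifi205 (0.81), and Mmp19 like Ecm1 (0.78), Bst1 (0.76) and Tfec (0.76). Vcan was most like Ace (0.76), Treml4 (0.74) and AI839979 (0.72), of which Ace and Treml4 mark patrolling monocytes. The sparse Mmp12 (Zmynd15, 0.68; Clec4n, 0.66; Sh3pxd2b, 0.66) and Mmp13 (Man2a1, 0.61; Pf4, 0.60; Ocstamp, 0.59) had weaker likenesses. Among the 10 genes themselves, r was highest for Fn1 with Thbs1 (0.74) and lowest for Timp1 with Timp2 (-0.53).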

How the data were processed

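RNA and antibody tags of CD11b+ brain cells were measured by CITE-seq in 3 pools of 6 hashed samples. The deposited matrices hold raw UMI counts for each barcode and each gene or tag, unscaled by the authors. Build mm10, Seurat 3, bcl2fastq 2.20.0.422 and Cell Ranger in versions 4.0.0 and 3.0.1 are named in the submitters' processing notes, while per the file headers pools 2 and 3 used 4.0.0 and pool 1 used 3.1.0. The counting covers transcript 3' ends, so levels are compared between cells and not between genes.

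Barcodes with at least 200 genes, 500 UMIs and under 10% mitochondrial UMIs were kept (10688 to 13766 a pool), and cells positive for exactly 1 hashtag by the HTODemux procedure were used, which leaves doublets within a hashed sample in place. Scrublet's own threshold called 0, 462 and 6 doublets and had not worked in pools 1 and 3, so a score limit of 0.2 is an alternative. Clustering (scanpy 1.11.5, igraph 0.11.9; 2000 variable genes, 30 components, resolution 1) left out 93 genes, the 10 genes and the related lists without class markers. It gave 21 clusters and 14 sub-clusters. The 18 marker lists were written first, while the naming rule was written after clusters were seen, so a difference from the study may come from rebuilt names. Unnamed clusters held 3082 cells, including a mixed cluster 95.1% from pool 3.

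Counts were summed per hashed sample and class or gate with at least 20 cells. Protein level is the centred log ratio over the 10 tags the pools share. Gates were tested with edgeR 4.0.16 in R 4.3.3 (quasi-likelihood, TMM, filterByExpr, hashed sample as a block, Benjamini-Hochberg adjustment over all genes tested, threshold 0.05), which was tested on simulated data. Both gates of a sample come from the same cells' suspension, so the block rests on the design. Pools are replicates 1 to 3 in runs that leave 1 out. Alternatives were DESeq2 1.42.0, other scalings, filters, gates, hashtag rules and cell minimums. All 10 genes are accounted for in each gate comparison, tested or not, and list genes by up to 3 largest changes that passed and went 1 way in every sample. Shares have exact Clopper-Pearson 95% intervals, and a count of 0 allows 3 counts. The 10 genes and the lists were chosen with earlier results of these data known.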

Additional observations from a re-analysis of the deposited data

Results flagged for a closer look

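In 1 of 67 sets of 4 to 10 hashed samples checked, a single sample lay far from the others, and chance alone would mark about 1 in 20. It was Mmp14 in the PD-L1 gates of pool 2, where hashtag 3 had a log2 difference of 0.791 (247 CPM from 408 UMIs in the high gate, 142 CPM from 206 UMIs in the low gate), against 0.268 to 0.296 in the other 3 samples. The labels do not say which groups of the study these hashed samples belong to, and the source of the gap was not tested.

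The second value comes from cells outside the comparisons. Mmp8, the neutrophil collagenase, had a UMI in 46.0% of the 50 neutrophil-like cells (23 cells, exact Clopper-Pearson 95% interval 31.8% to 60.7%), and in 0 of 630 NK-like cells, which allows up to 0.476%. Neutrophil-like cells were too few for a sum in any hashed sample.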

How the results depend on the processing

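Counts of genes called stayed within 1.5 times in 59 of 73 alternatives. In the Ly-6C gates 3692 genes were called, against 2424 with gates on raw tag counts, 527 in the macrophage-like classes alone, 1073 in the monocyte-like class alone and 344 in the remaining infiltrating clusters alone. In the MHC-II gates 2671 were called, against 1366 and 240 in those 2 single classes, and in the PD-L1 gates 3701, against 1470 and 412. The single-class alternatives hold fewer cells. Without the replicate block 1426 genes were called for MHC-II and 1296 for TMEM119 in microglia-like cells, where the block gave 2671 and 1958. Leaving out 1 pool gave 826 to 2783 for MHC-II (lowest without pool 1), 2311 to 3595 for PD-L1 (lowest without pool 1) and 1030 to 1908 for TMEM119 in microglia-like cells (lowest without pool 2).

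Library size alone moved the median of all genes by 0.33 for TMEM119 over all cells (5016 higher and 1793 lower, against 3274 and 2919), by 0.18 in microglia-like cells (2965 called, 2349 higher and 616 lower, against 904 and 1054) and by 0.14 for PD-L1 (2496 and 1375, against 1896 and 1805). It moved it by -0.09 for Ly-6C (1559 and 2225, against 1971 and 1721) and by 0.07 for MHC-II. No gate call of the 10 genes reversed with it.

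Of 441 alternatives for single genes in the gates, 415 kept direction and side of the threshold, 23 lost the call and 3 reversed. The reversals were Mmp14 in the Ly-6C gates of the macrophage-like classes (0.12, adjusted p = 0.46) and of the remaining infiltrating clusters (0.0186), and Fn1 in the PD-L1 gates of the remaining infiltrating clusters (0.0673), all by edgeR's test. Gates on raw tag counts lost the Ly-6C calls of Fn1 (0.11, adjusted p = 0.46) and Mmp14 (-0.06, adjusted p = 0.46), and 40% gates that of Mmp14 (-0.16, adjusted p = 0.067). The causes were not tested. Of 822 class differences, 802 moved by less than 1 SD. Among the 20 others, the fitted Fn1 difference between monocyte-like and microglia-like cells was 6.47 with the settings used, 3.35 with majority hashtags and 3.24 with the 10 genes kept in clustering, and Timp2 in Nos2+Inhba macrophage-like minus monocyte-like cells was -0.07 with majority hashtags. With the genes kept in clustering, no Nos2+Inhba class was found and its differences have no value. The SD used is that of the paired difference over samples, so a wide SD lets large moves pass. For Mmp12 in Gpnmb minus Nos2+Inhba macrophage-like cells the SD was 2.56. Leaving out 1 pool gave fitted differences of 0.02 to 2.46 there. Without pool 3 the Mmp14 call in the Ly-6C gates was the 1 call lost. Depth limits the sparse genes: Mmp13 passed the filter on low counts in none of the gates, and Mmp8, Mmp12 and Mmp19 in none within the monocyte-like class.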
